A study of Rattus norvegicus with 84 samples.

Results

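MicroRNAs (miRNAs) carried by extracellular vesicles (EVs) from the brain and from the plasma of healthy rats were compared. The libraries were those labelled brain, healthy and plasma, healthy, replicates 1 to 3, and the miRNAs were the known ones, whose names carry the rat prefix rno-. This gave 6 of the 42 miRNA libraries of a series of 84 libraries. The deposited table lists 5489 miRNAs, of which 699 are known and 4790 were predicted by the authors. The known miRNAs are described here. Of the 699, 610 had at least 1 unique molecular identifier (UMI) in the 6 libraries and 89 had none.

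The series was read as 21 rats in 7 groups of 3, with an miRNA and an mRNA library of brain EVs and of plasma EVs from each rat. The healthy rats are labelled wild type, and no occlusion or transplantation is listed for them. The other rats underwent a transient occlusion of the middle cerebral artery and received saline (control) or human neural stem cells on day 3 poststroke, with EVs collected on day 4, 10, or 31. The study used adult male Sprague-Dawley rats, and the replicates are labelled as biological. Brain EVs were freed with enzymes from frozen tissue, ultracentrifuged, and then purified on size exclusion columns. The study names the right hemisphere for the stroke brains and gives no side for the healthy ones. Plasma EVs were separated by size exclusion chromatography, with no enzymes or ultracentrifugation described. Isolation thus differed between the tissues in every library, and its part in the differences cannot be told apart from that of the tissue. The labels write serum in the extraction text and plasma elsewhere, and plasma is used here. The labels number the replicates of each tissue without naming rats, and a replicate number was read as the same rat in both tissues.

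An miRNA is cut from a hairpin precursor, which can yield a 5p and a 3p product, and it lowers the output of mRNAs that pair with its seed, the bases at positions 2 to 8. Related miRNAs share a seed, and many miRNAs are made mainly in particular cell types, such as miR-124 and miR-9 in neurons, miR-219 in oligodendrocytes, miR-122 in hepatocytes, miR-142 and miR-223 in leukocytes, and miR-451 in red cell precursors. EVs in plasma come largely from blood cells, the vessel wall, and the liver, whereas EVs of brain tissue come from neurons, glia, and vessels. RNA within EVs and RNA that copurifies with them were not separated in these libraries.

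The sequences below are those on which the comparison turns, 5′ to 3′, with the seed in capitals. First come miRNAs that were higher in brain EVs, then miRNAs that were higher in plasma EVs, then let-7a-5p, which was abundant in both, and last 3 members of the miR-125 seed group, whose members differed in direction.
miR-9a-5p: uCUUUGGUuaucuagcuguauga
miR-137-3p: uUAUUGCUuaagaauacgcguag
miR-219a-2-3p: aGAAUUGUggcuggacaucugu
miR-434-3p: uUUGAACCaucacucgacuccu
miR-16-5p: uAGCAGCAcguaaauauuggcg
miR-142-3p: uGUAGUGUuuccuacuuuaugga
miR-223-3p: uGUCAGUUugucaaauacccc
miR-451-5p: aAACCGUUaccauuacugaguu
let-7a-5p: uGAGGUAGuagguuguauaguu
miR-125b-5p: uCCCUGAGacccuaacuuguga
miR-125a-5p: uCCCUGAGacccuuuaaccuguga
miR-351-5p: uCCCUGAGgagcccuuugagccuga
The sequences and positions are those of RefSeq on the rat build GRCr8, whereas the submitters' processing notes name Rnor_6.0. Of the 699 known miRNAs, 627 were matched to RefSeq by name. miR-137-3p lies at chr2:209165767-209165789 on the plus strand, miR-219a-2-3p at chr3:33516517-33516538 on the minus strand within the span of Cercam, and miR-434-3p at chr6:134330451-134330472 on the plus strand within that of Rtl1. miR-16-5p lies at chr2:155555343-155555364 on the plus strand within Smc4, and miR-142-3p at chr10:73055155-73055177 on the plus strand within Tspoap1. miR-9a-5p is encoded by 3 hairpins, Mir9-1, Mir9-2, and Mir9-3. miR-124-3p and miR-122-5p, which led the differences in the 2 directions, are named only.

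The brain libraries held 343498, 678032, and 478421 UMIs and the plasma libraries 1164864, 1648698, and 906133. Known miRNAs took 86.1% to 88.1% of the UMIs in brain and 96.4% to 97.2% in plasma. Levels are given as CPM, the UMIs of an miRNA per 1000000 UMIs of known miRNAs in a library. Fold changes and their tests come from edgeR with TMM scaling, which sets libraries to a common scale by the bulk of the miRNAs, and are given as log2 of plasma over brain with a standard error (SE). The TMM factors were 1.41, 1.21, and 1.44 in brain but 0.851, 0.512, and 0.934 in plasma, so a change on the TMM scale lies above the same change by library size alone, by a median of 0.85. The plasma library of rat 2 stood apart, with the lowest factor and the highest share of let-7. In the mRNA libraries of the same EVs, the neuronal Snap25 was at 387 to 806 CPM of annotated genes in brain and at 0 to 0.0662 in plasma, and hepatic Alb at 0 to 1.11 in brain and 1471 to 2653 in plasma. Hbb, the red cell hemoglobin subunit beta, was at 10.7 to 33.7 in brain and 3539 to 9082 in plasma, and platelet Pf4 at 0 in brain and 825 to 10746 in plasma, highest in rat 2.

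The known repertoire was broader in the brain libraries. The brain libraries held 440, 476, and 488 known miRNAs (468 ± 25.0, SD, n = 3) and the plasma libraries 429, 423, and 382 (411 ± 25.6, SD, n = 3), although the plasma libraries were deeper. The groups did not overlap, and the two-sided exact permutation p was 0.1, the smallest that 3 against 3 allows. At an equal depth of 295844 UMIs the expected numbers were 445 ± 13.5 in brain and 339 ± 9.09 in plasma (exact permutation p = 0.1). The 10 most abundant miRNAs took 62.8% ± 2.33 of the UMIs in brain and 69.6% ± 6.41 in plasma (exact permutation p = 0.2). miR-29c-3p and miR-29a-3p, both among the 10 in brain by mean CPM, had nearly the same counts and entered this share separately. Other shares and numbers of miRNAs here and below also count such near-identical members separately. The most abundant miRNA of each brain library was let-7a-5p, at 10.5% ± 1.19 of UMIs. In plasma the leading miRNA held 20.5% ± 6.18, and it was miR-16-5p in rats 1 and 3 and let-7a-5p in rat 2.

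Of the 610 detected miRNAs, 417 had a UMI in both tissues, 123 in brain but not in plasma, and 70 in plasma but not in brain. After the filter on low counts 337 were tested, and 273 with a UMI were not. The filter keeps an miRNA that is high enough in either tissue, so an miRNA close to absence in the other entered through the tissue where it is high, and counts over lists of miRNAs below are descriptions. A call required a change over 1.5-fold and an adjusted p (Benjamini-Hochberg) under 0.05. By edgeR, 253 of the 337 were called, which is 75.1%. Of these, 116 (34.4% of those tested) were higher in plasma and 137 (40.7%) were higher in brain. With scaling by library size alone the counts were 96 and 177, so plasma held 45.8% of the calls with TMM and 35.2% by library size. The counts of calls in the lists below are to be read beside these totals. Groups did not overlap in CPM for 275 miRNAs (81.6%). Overlap is judged throughout on CPM, which is scaled by library size and not by TMM. The difference exceeded 10-fold for 99 of the miRNAs higher in brain and for 56 of those higher in plasma. All 137 calls higher in brain and 96 of the 116 higher in plasma were made under each of 4 scalings, a check chosen after seeing the data. The median log2 fold change was −0.31 with TMM, −0.59 with RLE, −1.14 by library size, and −0.29 with upper-quartile factors. The other scalings thus moved changes toward brain or hardly at all. The check could therefore hardly remove a call higher in brain, and the 2 directions are not compared by it.

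**Figure D1:**
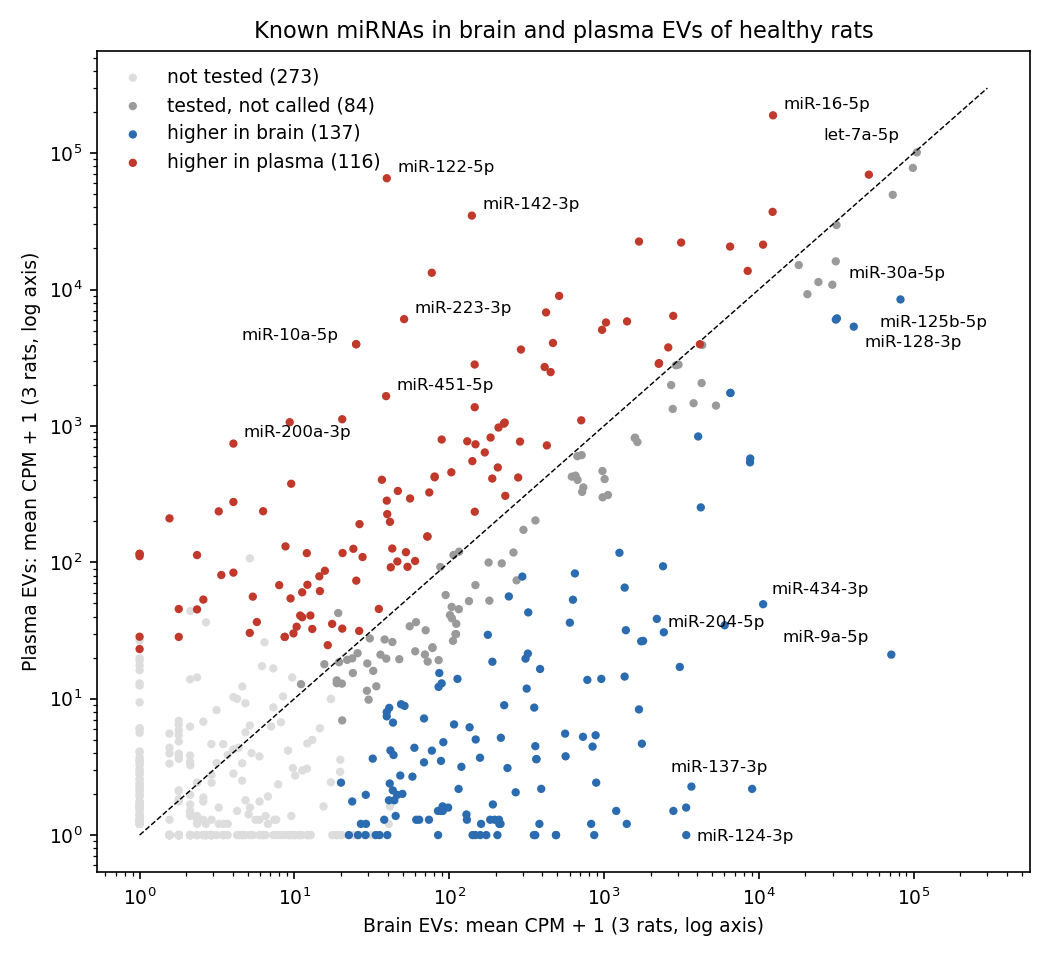
Mean CPM (UMIs per 1000000) plus 1 in brain EVs (horizontal, log axis) and plasma EVs (vertical, log axis) of 3 healthy rats, each point being 1 of the 610 detected known miRNAs and the dashed line marking equal levels. Blue points were called higher in brain (137), red points higher in plasma (116), dark gray points were tested without a call (84), and light gray points were not tested (273); miR-9a-5p and miR-122-5p lie far from the line while let-7a-5p lies on it.

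Neuronal miRNAs separated the tissues most. All 18 members of the neuronal list were tested and all 18 were called higher in brain under TMM and library size scaling, with a median log2 fold change of −9.57 beside −0.31 over the 337 tested. Together they took 16.2%, 13.98%, and 16.9% of the UMIs of the brain libraries and 0.478%, 1.13%, and 0.384% of those of the plasma libraries. miR-9a-5p, which acts in neural progenitors and neurons, was at 72011, 70409.5, and 73166 CPM in brain and at 18.6, 10.6, and 30.9 in plasma. The brain values lay within a narrow range and the groups did not approach each other, with a log2 fold change of −11.04 (SE 0.59, adjusted p = 2.09e-08). Its opposite arm, miR-9a-3p, was at 11100.4, 4943, and 11139 in brain and was represented by 2, 1, and 1 UMIs in plasma.

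miR-124-3p, the most specific of the neuronal miRNAs, was at 4469, 2410.0, and 3326 CPM in brain and had no UMI in any of the 3 plasma libraries. It was at least 3806-fold higher in brain, against a floor of 3 counts over the plasma group. Bounds and intervals of this kind cover counting error only. miR-137-3p, which regulates synaptic genes, was at 3985, 3006, and 4028 in brain and at 0.887, 0.624, and 2.29 in plasma, where these levels stand for 1, 1, and 2 UMIs. miR-132-5p, from an activity-regulated locus, was at 788, 1144, and 662 in brain and at 0 in plasma, at least 1092-fold higher in brain. miR-129-1-3p and miR-129-2-3p had identical counts and no UMI in plasma, at least 595-fold higher in brain. In all, 6 of the 18 neuronal miRNAs had no UMI in the plasma libraries.

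miR-384, a brain miRNA that is also among the 10 largest differences, was close to absent from plasma in both arms. The pooled ratio of brain to plasma was 4833 for miR-384-5p (95% counting interval 1337 to 39925, from 2 UMIs in plasma). For miR-384-3p the ratio was 4958 (889 to 195940, from 1 UMI). Not all neuronal members were so restricted. miR-128-3p was at 46153, 38203, and 38981 CPM in brain and at 3148, 10853, and 2036 in plasma. The groups did not overlap, the plasma value of rat 2 was the highest of the 3, and the log2 fold change was −1.75 (SE 0.69, adjusted p = 0.0353). The call was lost without the plasma library of rat 1 (−1.37, adjusted p = 0.188) and without that of rat 3 (−1.27, adjusted p = 0.0739). miR-7a-5p, which shares nearly all counts with miR-7b, was at 6554, 6152, and 13731 in brain and at 707, 142, and 878 in plasma (log2 fold change −3.23, SE 0.52).

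Oligodendrocyte miRNAs were also higher in brain EVs. Of the 5 members of this list, 3 were tested and 3 were called higher in brain under both scalings, and the list held 0.614% to 0.838% of brain UMIs and 0.00281% to 0.00389% of plasma UMIs. Of all 337 tested, 137 were called higher in brain with TMM and 177 by library size. miR-219a-2-3p, which promotes myelination, was at 3119.9, 3679.7, and 3382 CPM in brain, whereas plasma held 2 UMIs, both in rat 1. The pooled ratio of brain to plasma was 6232 (95% counting interval 1724 to 51474). miR-338-3p, which acts with it, was at 3262, 1975, and 4030.0 in brain and at 18.6, 5.61, and 24.04 in plasma (log2 fold change −6.83, SE 0.52, adjusted p = 2.54e-07). Both untested members were scarce, and 1 of them, miR-219a-1-3p, had 1 UMI in brain and 13 in plasma, not scaled for the deeper plasma libraries.

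Choroid plexus and ependymal miRNAs that were tested followed the same direction. Of 10 listed, 8 were tested and 7 were called higher in brain (8 by library size), with a median log2 fold change of −3.41. miR-204-5p, abundant in choroid plexus, was at 2582, 2298, and 1703 CPM in brain and at 74.5, 29.9, and 8.01 in plasma. Its close relative miR-211-5p was at 1136, 833, and 913 in brain and at 22.2, 15.6, and 1.14 in plasma. For both, the plasma value was lowest in rat 3 and remained far under the brain values (log2 fold changes −4.98 with SE 0.69 and −5.18 with SE 0.74). miR-34b-3p and miR-34b-5p, miRNAs of ciliated cells, were lower by less, with log2 fold changes of −1.71 (SE 0.59) and −1.78 (SE 0.54), and the call on miR-34b-3p was lost without the plasma library of rat 1 (−1.33, adjusted p = 0.0898). miR-449a-5p, which was not tested, had 8 UMIs in brain and 49 in plasma, and miR-449c-5p had 0 and 2. These are raw counts that are not scaled for the deeper plasma libraries, and no direction is read from them.

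The largest block of brain miRNAs came from the imprinted Dlk1-Dio3 region, whose miRNAs are expressed from the maternal chromosome and are known in neurons and in the embryo. Of 83 listed members, 81 had a UMI in these libraries and 47 were tested. All 47 were called higher in brain under TMM and library size scaling, with log2 fold changes from −10.59 to −2.01 and a median of −6.30. The untested members were scarce, and 33 of the 83 had no UMI in plasma, among them 2 with none in brain either. Together the region held 3.25%, 3.61%, and 3.26% of brain UMIs and 0.0329%, 0.0331%, and 0.0098% of plasma UMIs, with the lowest share in rat 3. miR-434-3p, its most abundant member, was at 9816, 14195, and 8022 CPM in brain and at 61.2, 71.1, and 12.6 in plasma (log2 fold change −6.75, SE 0.77, adjusted p = 7.21e-06). miR-127-3p, which is antisense to the Rtl1 gene, was at 5408, 6375, and 6286 in brain and at 44.3, 50.5, and 5.72 in plasma. miR-369-5p was at 1683, 1810.5, and 1556 in brain and had no UMI in the plasma of rat 3, with 13.3 and 8.73 in the others.

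miRNAs that are broadly expressed were also among those higher in brain EVs. miR-125b-5p, whose levels rise as neurons and other cells differentiate, was at 86343, 69706, and 91137 CPM in brain and at 10765, 11098, and 3524 in plasma (log2 fold change −2.26, SE 0.56, adjusted p = 0.0026). The 3 members of the miR-29 family, which target collagen mRNAs, were called higher in brain under both scalings. miR-29c-3p was at 31449, 22352, and 42193 in brain and at 7069.7, 4013, and 7356 in plasma (log2 fold change −1.54, SE 0.38), and miR-29a-3p shares nearly all counts with it. miR-34a-5p, a target of p53, was at 1470.4, 546, and 1758 in brain and at 155, 58.0, and 136 in plasma, which did not overlap (log2 fold change −2.62, SE 0.47).

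**Figure D2:**
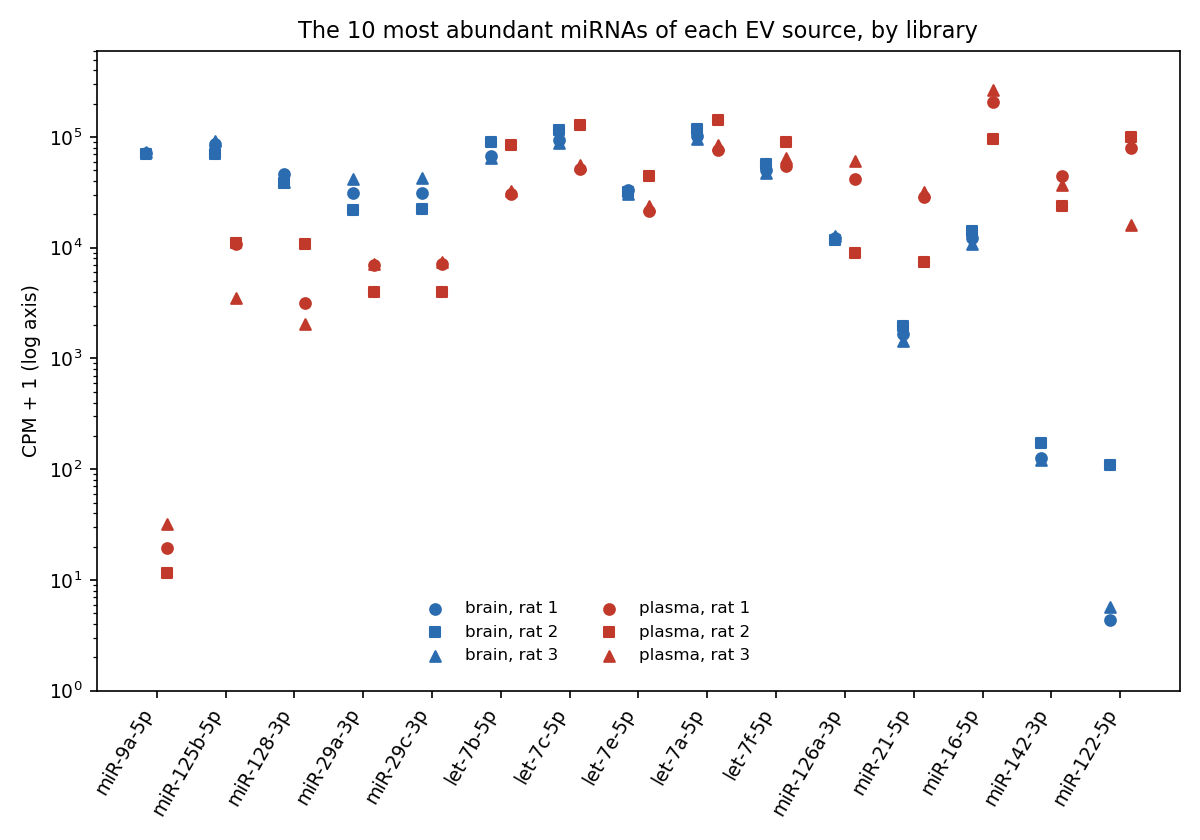
CPM plus 1 (log axis) in each library for the 10 most abundant miRNAs of each tissue, brain in blue and plasma in red, with circles, squares, and triangles for rats 1, 2, and 3. The order from left to right is that of the log2 fold change; 5 of the miRNAs, all of let-7, are among the 10 in both tissues, miR-9a-5p stands at 10.6 to 30.9 in plasma against 70409.5 to 73166 in brain, and rat 2 (squares) is lowest in plasma for miR-16-5p, miR-21-5p, and miR-126a-3p.

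Plasma EVs were led by miR-16-5p, an abundant miRNA of red cells and platelets. It was at 12236, 14070.5, and 10802 CPM in brain and at 206770.0, 95455, and 266139 in plasma. The groups did not overlap, rat 2 had the lowest plasma value, and the log2 fold change was 4.68 (SE 0.49, adjusted p = 3.83e-06). Of the 6 members of the miR-15/16 family, 5 were called higher in plasma, and 4 by library size. miR-15b-5p, from the same cluster, was at 101, 65.5, and 139.9 in brain and at 492, 331, and 545 in plasma (log2 fold change 3.02, SE 0.43).

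Red cell miRNAs were few in brain EVs. All 3 tested members of the erythroid list were called higher in plasma under both scalings, and the 4 listed members took 0.343%, 0.101%, and 0.712% of plasma UMIs and 0.00439% to 0.0083% of brain UMIs. Of all 337 tested, 116 were called higher in plasma with TMM and 96 by library size. miR-451-5p, which is processed by Ago2 without Dicer, was at 13.5, 48.7, and 52.2 CPM in brain and at 1510.4, 539, and 2909 in plasma (log2 fold change 6.06, SE 0.64). miR-144-5p, from the same transcript, was at 13.5, 6.72, and 4.74 in brain and at 839, 208, and 2146 in plasma (log2 fold change 7.67, SE 0.79). Rat 3 was highest and rat 2 lowest in plasma for both, which is also the order of Hbb mRNA in these EVs, and the part of red cell RNA in the result was not tested. miR-486, the untested member, had no UMI in brain and 12, 22, and 22 UMIs in plasma.

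Platelet and endothelial miRNAs were present in both tissues. All 5 were called higher in plasma under both scalings, with a median log2 fold change of 2.74, and they took 1.86% to 2.19% of brain UMIs and 4.30% to 8.53% of plasma UMIs. miR-126a-3p, an endothelial miRNA encoded within Egfl7, was at 12314, 11723, and 12847 CPM in brain and at 42010.1, 8865, and 60507 in plasma. In CPM, which is not TMM-scaled, the plasma of rat 2 lay below every brain library, so the groups overlapped on that scale. The log2 fold change by edgeR with TMM was 2.27 (SE 0.50, adjusted p = 0.00102). By limma on TPM, miR-126a-3p was not called (adjusted p = 0.0777 with 1 added and 0.115 with 0.1 added). miR-199a-3p, abundant in platelets and mesenchymal cells, was at 291, 304, and 275 in brain and at 6419.6, 1805, and 2669 in plasma (log2 fold change 4.42, SE 0.48). miR-191a-5p was at 6929, 5574, and 7083 in brain and at 17350.0, 31006, and 13639 in plasma, with rat 2 highest in plasma, whereas miR-199a-3p and miR-126a-3p were lowest in rat 2, which had the highest Pf4 mRNA. miR-21-5p, an abundant miRNA of vessel wall and blood cells, was at 1666, 1955, and 1428 in brain and at 28569.6, 7353, and 31572 in plasma (log2 fold change 4.43, SE 0.50).

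Leukocyte miRNAs took 10.7%, 5.93%, and 9.65% of plasma UMIs and 0.752% to 0.789% of brain UMIs. All 9 were tested, and 8 were called higher in plasma under both scalings, with a median log2 fold change of 5.88. The ninth, miR-146b-5p, was not called with TMM (−0.32) and was called higher in brain by library size (−1.07, adjusted p = 0.0415). miR-142-3p, made in hematopoietic cells, was at 125, 171, and 121 CPM in brain and at 43998, 23926, and 36627 in plasma (log2 fold change 8.77, SE 0.55, adjusted p = 7.7e-08). miR-223-3p, a myeloid and platelet miRNA, was at 33.8, 62.1, and 54.6 in brain and at 5498, 5784, and 6930.4 in plasma (log2 fold change 7.77, SE 0.53). The 3 plasma values of miR-223-3p lay close together, unlike those of the red cell miRNAs. miR-150-5p and miR-342-3p, lymphocyte miRNAs, were also well represented in brain, at 2880.3 to 3370.0 and at 2631 to 3080.1 CPM, and differed less (log2 fold changes 3.66 with SE 0.41 and 2.08 with SE 0.38). miR-155-5p, induced in activated immune cells, was at 3.38, 15.1, and 7.12 in brain and at 385, 239, and 504 in plasma.

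Liver miRNAs were higher in plasma EVs. Of 5 listed, 4 were tested and 4 were called higher in plasma under both scalings, and the list took 8.32%, 10.3%, and 1.99% of plasma UMIs. miR-122-5p, the main miRNA of hepatocytes, was at 3.38, 107, and 4.74 CPM in brain and at 79599, 100694, and 16144 in plasma (log2 fold change 11.59, SE 1.498, adjusted p = 1.6e-05). The brain value of rat 2 stands for 64 UMIs, beside 1 and 2 in the other two rats, and rat 2 also had the highest plasma value. miR-192-5p was at 142, 179.7, and 114 in brain and at 3068, 2006, and 3382 in plasma (log2 fold change 5.08, SE 0.43), and miR-194-5p, its cluster neighbor, was at 94.6, 63.8, and 61.7 and at 463, 187, and 323. miR-122-3p, the untested member, had no UMI in brain and 96 in plasma.

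Epithelial and endocrine miRNAs formed a further group that was higher in plasma. Of 13 listed, 10 were tested and 10 were called higher in plasma under both scalings, with a median log2 fold change of 5.28, although the list took no more than 0.0188% of the UMIs of any brain library. miR-200a-3p, which maintains the epithelial state, was represented in brain by 1, 2, and 1 UMIs and was at 1110.4, 743, and 369.8 CPM in plasma (log2 fold change 8.74, SE 0.75). miR-429 of the same family had 1 UMI in brain, and the pooled ratio of plasma to brain was 288 (95% counting interval 51.6 to 11394). miR-141-3p was at 3.38, 3.36, and 2.37 in brain and at 334, 218, and 276 in plasma, with no overlap.

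miRNAs encoded in the Hox gene clusters were among the largest differences toward plasma. miR-10a-5p was at 30.4, 25.2, and 16.6 CPM in brain and at 4221, 3858, and 3863 in plasma (log2 fold change 8.27, SE 0.54), and miR-10b-5p shares nearly all counts with it. miR-196a-5p and miR-196b-5p had no UMI in brain and were at 124, 156, and 63.0 in plasma, at least 54.0-fold higher in plasma against 3 counts over the brain group. miR-196c-5p, which shares nearly all counts with both, was at least 51.7-fold higher. Across the 42 miRNA libraries 26 pairs of known miRNAs, covering 49 miRNAs of which 43 were tested, had counts that differed by less than 5%, so the values of the members of a pair cannot be told apart.

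The miR-17-92 cluster and its relatives, which promote cell proliferation, were higher in plasma for 9 of 10 tested members under both scalings. The exception, miR-92b-3p, was not called with TMM (−0.23) and was called higher in brain by library size (−1.14, adjusted p = 0.0324). miR-92a-3p was at 341, 885, and 311 CPM in brain and at 9510.5, 9566, and 7869 in plasma (log2 fold change 5.00, SE 0.60). miR-25-3p was at 1119, 994, and 977 in brain and at 5655, 5187, and 6362 in plasma (log2 fold change 3.36, SE 0.39). Striated muscle miRNAs, 8 listed and 5 tested, were called higher in plasma in 3 cases with TMM, beside 116 of all 337 tested. By library size 1 was called, beside 96 of the 337. That 1 was miR-1-3p, at 250.1, 193, and 239.6 in brain and 1016, 819, and 1337 in plasma.

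The let-7 family, which holds back proliferation and marks differentiated cells, was the largest seed group in both tissues and differed little. Its 9 members carry the same seed and took 37.9% ± 4.53 of the UMIs in brain and 35.4% ± 14.5 in plasma (SD, n = 3), where the 3 libraries held 25.7%, 52.1%, and 28.3%. let-7a-5p was at 101489, 118308, and 95288 CPM in brain and at 76340.2, 142605, and 84891 in plasma. The groups overlapped, with a log2 fold change of 0.96 by TMM (SE 0.52, adjusted p = 0.114) and −0.05 by library size. let-7b-5p and let-7c-5p likewise turned with the scaling, from 0.52 to −0.57 and from 0.72 to −0.35, and neither was called. let-7i-5p was called higher in plasma under both scalings, at 9400.2, 12915, and 9687 in brain and at 17542, 28345, and 18114 in plasma (log2 fold change 1.99, SE 0.49, adjusted p = 0.00258). let-7f-5p was called with TMM (1.42, SE 0.49, adjusted p = 0.0181) but not by library size (0.43), nor without any 1 of the brain libraries (0.85 to 1.02, adjusted p = 0.0885 to 0.216).

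Among the 38 miRNAs with a mean of at least 1000 CPM in both tissues, 21 were called, beside 253 of all 337 tested. The 6 with the smallest changes were miR-99b-5p, let-7g-5p, miR-30a-5p, miR-30d-5p, miR-30e-5p, and let-7d-5p, with log2 fold changes from −0.40 to 0.45 by TMM. By library size 4 of these 6 were called higher in brain, namely miR-99b-5p (−1.06, adjusted p = 0.0265), let-7g-5p (−1.05, adjusted p = 0.0283), miR-30d-5p (−1.10, adjusted p = 0.0266), and miR-30e-5p (−1.16, adjusted p = 0.0283). miR-30a-5p, which targets autophagy and cytoskeletal mRNAs, was at 33656, 28492, and 32249.6 CPM in brain and at 22476, 8992, and 16842 in plasma. These groups did not overlap on the library size scale, where the log2 fold change was −0.97, while by TMM it was −0.17 (SE 0.38, adjusted p = 0.693). None of the 5 members of the miR-30 family was called by TMM and 3 were called higher in brain by library size. In the TMM-scaled model of all 42 libraries, miR-30d-5p (−0.69, adjusted p = 0.0458) and miR-30e-5p (−0.82, adjusted p = 0.0082) were called higher in brain as well. For the 4 members of the miR-181 family the counts were 0 and 4. A change near 0 thus depends on the scaling and the model for these families, and the TMM result is no sign that their levels were equal.

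**Figure D3:**
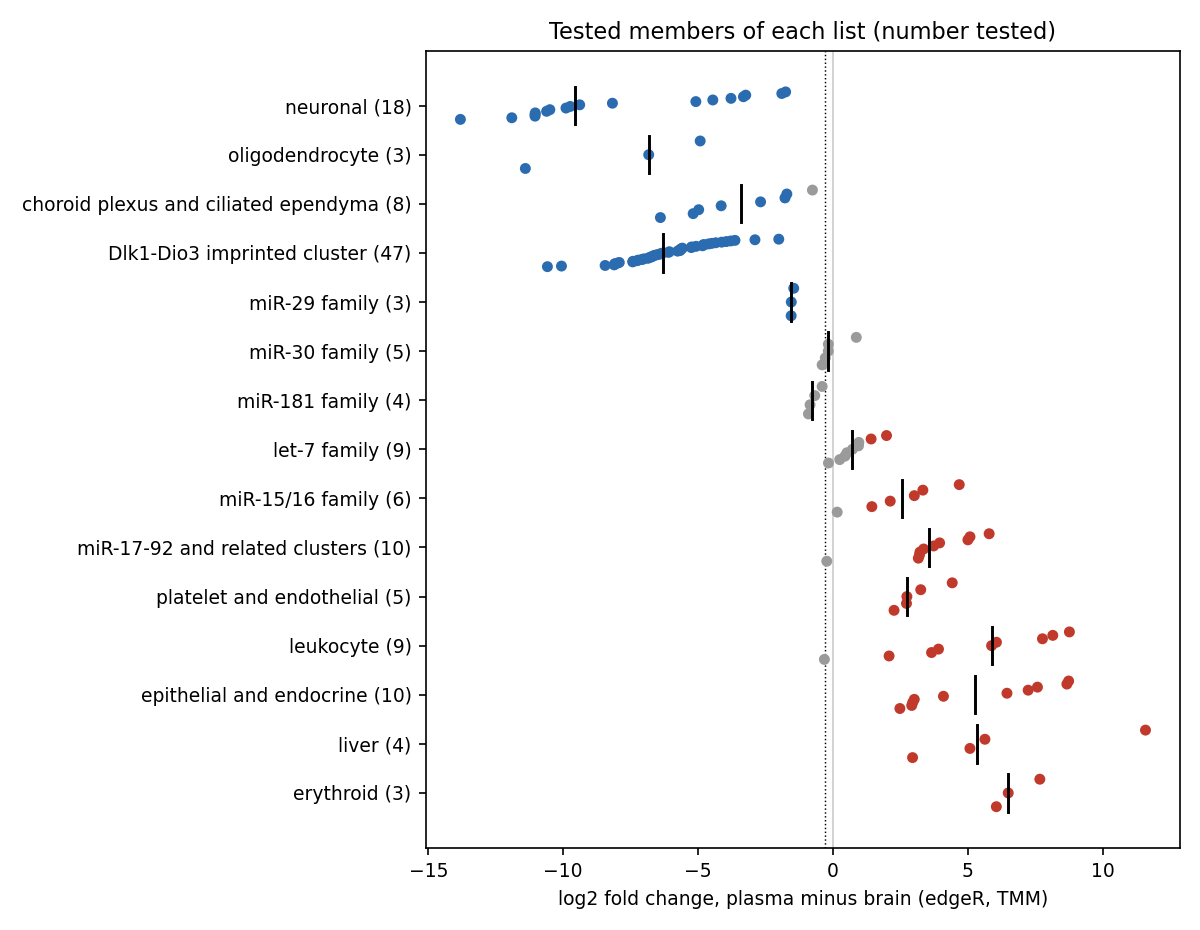
Log2 fold change of plasma over brain (edgeR, TMM) for the tested members of 15 lists, with the number tested in parentheses, each point being 1 miRNA and short vertical bars marking list medians. Blue points were called higher in brain, red points higher in plasma, and gray points were not called; the dotted line marks the median of all 337 tested miRNAs (−0.31), and the neuronal and Dlk1-Dio3 members lie left of it while the blood, liver, and epithelial members lie right of it, except 1 leukocyte member that was not called.

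When UMIs were summed by seed, both tissues shared their leading seed and then diverged. After the let-7 seed GAGGUAG, the seed CCCUGAG of miR-125 held 11.2% ± 0.561 of brain UMIs and 1.97% ± 0.734 of plasma UMIs. The seed GUAAACA, of the miR-30 family and miR-384-5p, held 8.09% ± 0.570 in brain and 3.76% ± 1.56 in plasma. The seed AGCAGCA of the miR-15/16 family held 1.31% ± 0.138 in brain and 19.1% ± 8.74 in plasma. CUUUGGU of miR-9a-5p ranked 4 in brain and 153 in plasma, and GGAGUGU of miR-122-5p ranked 190 in brain and 3 in plasma. Of 45 seeds with at least 2 tested members, some hold only miRNAs that share nearly all counts. Examples are miR-103-3p with miR-107-3p and miR-7a-5p with miR-7b. Such members could hardly be called in opposite directions, so these seeds carry no information on agreement. Among the 45, 1 had members called in opposite directions with TMM. This was CCCUGAG, whose sequences are given above. By library size there were 4, the others being GAGGUAG of let-7, AUUGCAC of miR-25 and miR-92, and GAGAACU of miR-146. miR-125b-5p was higher in brain, miR-125a-5p was not called (log2 fold change −0.52, SE 0.46, adjusted p = 0.329), and miR-351-5p was at 169, 215, and 183 CPM in brain and at 444, 405, and 381 in plasma (2.02, SE 0.43, adjusted p = 0.00088). Without the plasma library of rat 2, miR-125a-5p was called higher in brain (−0.97, adjusted p = 0.0179), as it was by library size (−1.46).

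Neighboring hairpins had calls in the same direction. RefSeq miRNA genes on 1 strand no more than 10000 bases apart gave 40 clusters with at least 2 tested miRNAs, of which 32 had a call, and 0 had calls in both directions with TMM or by library size. All tested members were called higher in brain in 7 clusters and higher in plasma in 14. From Mir379 to Mir410 on chromosome 6 (134543445 to 134579838, GRCr8), 33 of 33 tested miRNAs were higher in brain. From Mir770 to Mir136 on the same chromosome (134298084 to 134331416), 11 of 11 were. Mir212 and Mir132 on chromosome 10 gave 4 of 4 higher in brain, with a median log2 fold change of −8.97. The cluster from Mir450a1 to Mir322 on chromosome X (137720933 to 137726241), which holds miR-351-5p, had 9 of 9 higher in plasma, with a median log2 fold change of 2.36. The cluster from Mir17 to Mir92a1 on chromosome 15 had 7 of 7 higher in plasma, that of Mir15b and Mir16 on chromosome 2 had 3 of 3, and that of Mir144 and Mir451a on chromosome 10 had 3 of 3. Hairpins of a cluster are usually cut from 1 transcript, so their miRNAs are not independent measurements. The clusters are not independent of each other either. The tested miRNAs from Mir363 to Mir106a (miR-17-5p, miR-19b-3p, and miR-92a-3p) also count in the cluster from Mir17 to Mir92a1. miR-29b-3p counts in both miR-29 clusters. The clusters that start at Mir379, Mir770, and Mir341 all belong to the Dlk1-Dio3 region.

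The share of the 5p product of a hairpin does not depend on scaling between libraries. Of 131 hairpins with both arms listed, 24 (18.3%) were called by limma on the log2 ratio of 5p to 3p UMIs with 0.5 added to each, 13 with a higher ratio in plasma and 11 with a lower one. With 0.1 UMI added these calls fell to 3 and 3. In 10 of the 24 an arm had no UMI in a whole group, so that direction and size followed from depth and from the UMI fraction added. In these 10 the mean 5p share was equal in both tissues (4) or moved against the called direction (6), as for miR-16, miR-122, and miR-146a with 0 UMIs of the 3p arm in brain. These 10 are not read as changes in arm share. The 6 largest were miR-122, miR-27a, miR-211, miR-338, miR-203a, and miR-320, with log2 changes in the 5p to 3p ratio of 7.49, 5.35, −5.34, 4.54, −4.35, and −3.99. Of these, miR-122, miR-211, and miR-203a had an arm without a UMI in a whole group. Of the 6, 4 lost the call with 0.1 UMI added, miR-27a being kept along with miR-203a. For 8 of the 24 the 95% Clopper-Pearson intervals of the pooled 5p share did not overlap between tissues, and these were picked after their values were seen.

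let-7d gave the clearest of these. Its 5p share was 95.8%, 93.3%, and 95.1% in brain and 74.5%, 68.0%, and 76.5% in plasma, from 3435 UMIs of the 5p and 197 of the 3p arm in brain and 7028 and 2704 in plasma. The groups were well apart (log2 change in ratio −2.74, SE 0.45, limma adjusted p = 0.0040). The 5p arm of miR-27a had 2 UMIs in brain beside 3713 of the 3p arm, and 349 in plasma beside 9612, with shares of 0%, 0.0681%, and 0.077% against 2.23%, 2.42%, and 6.86% (adjusted p = 0.0010). The counts of miR-27a-3p are nearly those of miR-27b-3p, so this is not the share of a single hairpin, and the same holds for miR-99a, whose 5p arm shares counts with miR-100-5p, and for miR-29c, whose 3p arm shares counts with miR-29a-3p. The dominant arm changed for miR-455, with a 5p share of 39.3% ± 6.28 in brain and 85.3% ± 7.63 in plasma, and for miR-409a (55.3% ± 1.71 and 8.33% ± 14.4) and miR-483 (72.5% ± 12.6 and 18.4% ± 16.7). miR-409a rested on 4 and 43 UMIs of the arms in plasma, and miR-483 on 66 and 28 in brain. miR-99a, miR-29b, and miR-29c kept the same dominant arm in both tissues.

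**Figure D4:**
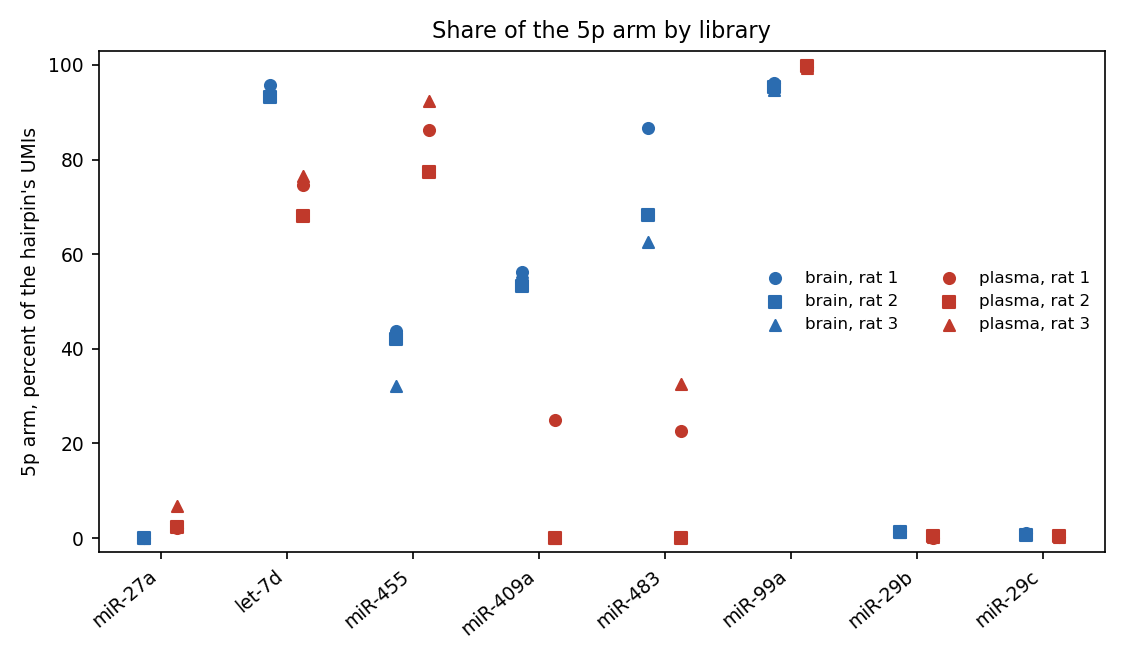
Share of the 5p arm, in percent of the UMIs of both arms of a hairpin, in each library for the 8 called hairpins whose pooled counting intervals did not overlap, brain in blue and plasma in red, with circles, squares, and triangles for rats 1, 2, and 3. let-7d falls from over 93% in brain to 76.5% or less in plasma, and miR-455, miR-409a, and miR-483 lie on opposite sides of 50% in the 2 tissues.

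The sequences of the called miRNAs were described beside those of all 337 tested. Mean length was 21.9 nt (SD 1.11) for those higher in brain, 22.0 nt (SD 0.928) for those higher in plasma, and 21.9 nt over all tested. Mean GC content was 49.2%, 46.4%, and 48.2%. U was the first base of 40.1% of the miRNAs higher in brain, 55.2% of those higher in plasma, and 44.8% of those tested, and A was first in 32.8%, 14.7%, and 25.2%. The letters GGAG and CCCU, which the EV sorting protein hnRNPA2B1 binds in other cells, and GGCU, which SYNCRIP binds, were sought on the mature strand. GGAG was in 7 of 137 (5.11%) and 9 of 116 (7.76%), with 8.90% over all tested. CCCU was in 14 (10.2%) and 11 (9.48%), with 9.79% over all tested. GGCU was in 24 (17.5%) and 7 (6.03%), with 13.1% over all tested. Members of 1 family share letters, so these shares carry no test.

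The difference between tissues was then followed in the 18 rats with stroke, whose libraries had no part in the comparison above. The difference of each rat was taken as log2(CPM + 1) in plasma minus that in its brain. Of the 137 miRNAs higher in brain in healthy rats, all 137 had a mean difference toward brain in the 18 rats, and 134 were higher in brain in 18 of 18 rats. Of the 116 higher in plasma, 112 had a mean difference toward plasma and 67 were higher in plasma in 18 of 18 rats. Over all 337 tested, 214 had a mean difference toward brain and 123 toward plasma. Of the 337, 160 were higher in brain and 67 higher in plasma in 18 of 18 rats. The brain side was thus nearly complete and the plasma side less so on this library size scale.

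The size of the difference in healthy rats was compared with that in control rats at 4, 10, and 31 days poststroke, as an interaction in edgeR over 393 miRNAs. Calls were made for 12 (3.05%), 15 (3.82%), and 34 (8.65%) at these days, and for 78, 72, and 102 at an unadjusted p under 0.05. With the rat as a block they fell to 3, 5, and 10, and leaving out 1 healthy library gave 3 to 8, 1 to 13, and 12 to 45. The 3 contrasts share the healthy libraries. At day 4, miR-142-3p was at 1283, 1017, and 975 CPM in brain EVs, against 125, 171, and 121 in healthy brain, while its plasma level of 21299 to 31458 lay within reach of the healthy 23926 to 43998. The log2 difference between tissues was larger in healthy rats by 3.72 (adjusted p = 0.00371). miR-155-5p was at 153, 105, and 83.9 in brain at day 4 against 3.38, 15.1, and 7.12 in healthy brain, with an excess of 4.67 in healthy rats (adjusted p = 0.00371).

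At day 10, miR-146a-5p, which dampens innate immune signaling, was at 995.6, 6592, and 4668 CPM in brain EVs, against 510.4, 391, and 500.5 in healthy brain. Its plasma levels were 1540.3, 3628, and 2897, against 4170.3, 2386, and 5608, and the log2 difference toward plasma was larger in healthy rats by 4.05 (adjusted p = 0.00121). miR-9a-3p moved on the plasma side instead. At day 4 it was at 109.6, 95.1, and 61.6 in plasma, against 1.77, 0.624, and 1.14 in healthy plasma, while brain held 7387 to 10927 against 4943 to 11139. The log2 difference of healthy rats minus that of control rats was −5.76 (adjusted p = 0.00121). At day 10 its plasma values were 0, 29.9, and 6.63, and at day 31 9.23, 3.61, and 1.79, when no call was made for miR-9a-3p. The other arm, miR-9a-5p, changed less in plasma and was not called at day 4. It was then at 40.1, 75.6, and 60.7 in plasma, against 18.6, 10.6, and 30.9 in healthy plasma.

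**Figure D5:**
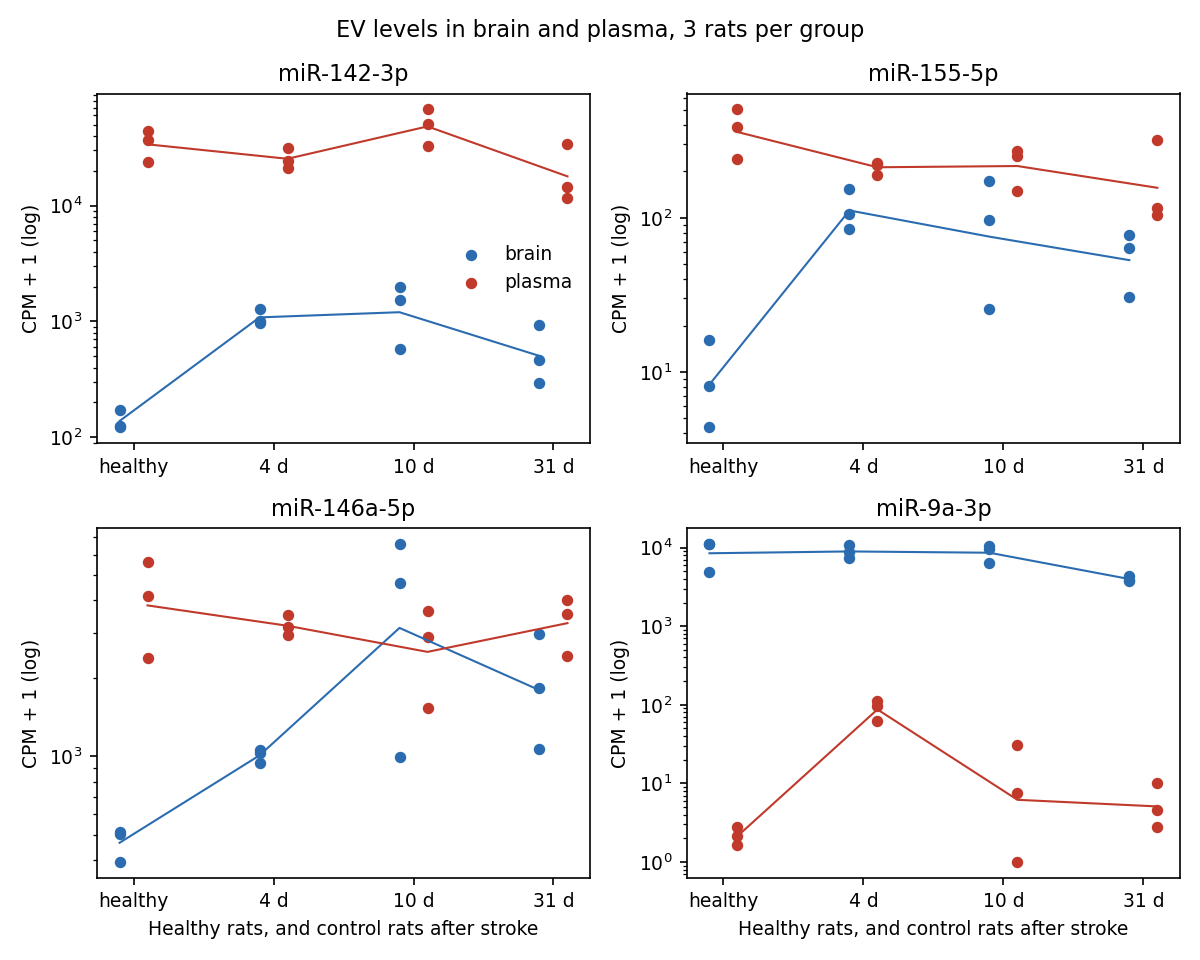
CPM plus 1 (log axis) of 4 miRNAs in brain EVs (blue) and plasma EVs (red) of healthy rats and of control rats 4, 10, and 31 days poststroke, each point being 1 rat and the lines joining geometric means of 3 different rats per group. For miR-142-3p, miR-155-5p, and miR-146a-5p the brain points lie above those of healthy brain at each day while plasma changes less, and for miR-9a-3p the plasma points of day 4 stand above those of healthy plasma.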

How the data were processed

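The members and lists were chosen with earlier results of these data known. The miRNA libraries were made with the QIAseq miRNA kit, which tags molecules with UMIs. The authors kept reads of 18 to 30 nt, counted them on the known miRNAs in miRBase and on predicted miRNAs, and deposited UMI counts per miRNA without normalization. The deposited TPM values are the authors' UMI counts scaled to the library total, without length correction, and were used in 2 alternatives only. The mRNA counts deposited by the authors, reads per gene without normalization, served to check tissue markers. The tool versions behind these files are not given in the sources used here. Groups were taken from the sample labels.

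The 6 healthy libraries were fitted with edgeR 4.0.16 under R 4.3.3, after filterByExpr and TMM scaling, and compared by its quasi-likelihood test, with Benjamini-Hochberg adjustment over all tested miRNAs. Arm ratios, log2((5p + 0.5)/(3p + 0.5)), were tested with limma 3.58.1 for hairpins with a mean of at least 10 UMIs over both arms in each tissue. Interactions were tested with edgeR in 24 libraries. Groups of 3 were compared with two-sided exact permutation tests. Floors of 3 counts and 95% intervals cover counting error only. The alternatives were RLE, upper-quartile and library size scaling, TMM without erythroid miRNAs, DESeq2 1.42.0, limma on log2(TPM + 1) and log2(TPM + 0.1) with a filter at a TPM of 5, no filter, predicted miRNAs kept, 1 model of the 14 groups of 42 libraries, near-identical miRNAs merged, rat 2 left out, each library left out in turn, and the rat as a block. The model code was run on simulated counts with known changes that were balanced in direction, so that run does not bear on the choice of scaling. Summaries and figures were made in Python 3.11.15 (pandas 2.3.3, numpy 2.4.6, scipy 1.17.1, matplotlib 3.10.9).

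Brain and plasma libraries with the same replicate number were taken as the same rat, which neither the labels nor the study's methods state. Deviations from the tissue means correlated at 0.18, 0.32 and 0.24 between the 2 libraries of rats 1, 2 and 3 over 188 miRNAs, which share depth and scaling. Across numbers the values ran from −0.35 to 0.26, and brain library 3 correlated more with plasma library 1 (0.26) than with its own number.

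The miRNAs named are the most abundant members of each list (up to 6), the 10 most abundant of each tissue, the 10 largest calls in each direction with a mean of at least 100 CPM in the higher tissue and no overlap, the 6 smallest changes among those with at least 1000 in both tissues, the 6 largest arm changes, up to 5 interactions per day, and 9 miRNAs that the study names for brain and plasma. Other miRNAs were named after their values were seen: the untested list members miR-449a-5p, miR-449c-5p, miR-219a-1-3p, miR-486 and miR-122-3p, the list members miR-155-5p and miR-129-1-3p, miR-351-5p, and the 8 hairpins with separate intervals.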

Additional observations from a re-analysis of the deposited data

Results flagged for a closer look

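The difference between tissues in healthy rats was not the same as in control rats after stroke for 15 named results, by the interaction test of edgeR. Values are the log2 difference of plasma over brain in healthy rats minus that in control rats, and the 3 days share the healthy libraries. At day 4 they were −5.76 for miR-9a-3p, 4.67 for miR-155-5p, 3.72 for miR-142-3p, 3.27 for miR-15b-3p, and 2.57 for miR-532-3p (adjusted p = 0.00121 to 0.0191). At day 10 they were 4.05 for miR-146a-5p, 4.39 for miR-155-5p, 3.36 for miR-142-5p, 2.92 for miR-142-3p, and 2.74 for miR-190b-5p (adjusted p = 0.00121 to 0.0301). At day 31 they were 4.26 for miR-155-5p, 3.45 for miR-142-3p, −3.01 for miR-136-3p, 6.13 for miR-483-3p, and 3.62 for miR-1249 (adjusted p = 0.0074). Of the 15, 11 were kept with the rat as a block and 7 under every alternative run.

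The 4 results lost with the block were miR-15b-3p (adjusted p = 0.0955) and miR-532-3p (0.0595) at day 4 and miR-142-3p (0.0723) and miR-190b-5p (0.0720) at day 10. miR-483-3p at day 31 rested on plasma rat 3, since its healthy plasma values were 21.3, 1.25, and 102 CPM, and without that library the value was 3.65 (adjusted p = 0.0651). miR-1249 was also lost without it (2.77, adjusted p = 0.0625). At day 10, miR-155-5p was lost without the brain library of rat 1 (3.91, adjusted p = 0.0644), and so was miR-142-5p (2.94, adjusted p = 0.106). miR-532-3p was lost without any of 5 of the 6 healthy libraries, the brain library of rat 1 being the exception (1.81 to 2.31, adjusted p = 0.0645 to 0.127). The lymphoid and myeloid miRNAs miR-155-5p and miR-142-3p were named at each day, and their brain levels were above the healthy range in all 9 control rats.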

How the results depend on the processing

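The numbers of calls by tissue stayed within 1.5 times under RLE and upper-quartile scaling, DESeq2, no filter (144 and 196 among 610 tested), the rat as a block (113 higher in plasma and 139 in brain), merged near-identical miRNAs, and without rat 2. With predicted miRNAs kept there were 351 and 705 calls among 1672 tested, and limma on log2(TPM + 1) gave 212 higher in brain. Leaving out 1 library gave 105 to 118 and 140 to 168 calls. A check of single miRNAs covered 86 of those picked by the naming rule and left out other list members that it picked. Of the 86, 70 kept direction and call under every alternative run, and 6 of the 75 called lost the call under at least 1. Those left out include the 4 members of the miR-181 family, with 0 calls by TMM and 4 by library size. The share kept thus does not extend to every miRNA that the rule picked. The family that turned was let-7: by library size let-7a-5p, let-7b-5p, let-7c-5p, let-7d-5p, and let-7e-5p were at −0.0529, −0.57, −0.35, −0.45, and −0.10, and by limma on TPM let-7b-5p to let-7e-5p were at −0.58, −0.32, −0.29, and −0.027 with either pseudocount. Without rat 2, let-7b-5p was at −0.49 and let-7c-5p at −0.20. Leaving out 1 library, the ranges were −0.63 to 0.90 for let-7b-5p, −0.30 to 1.08 for let-7c-5p, −0.0861 to 0.58 for let-7d-5p, −0.85 to 0.0022 for let-7g-5p, and −0.70 to 0.34 for miR-99b-5p. let-7e-5p was called higher in plasma without plasma rat 3 (1.27, adjusted p = 0.0391), let-7g-5p higher in brain without brain rat 2 (−0.85, adjusted p = 0.0397), and miR-24-3p was lost by library size (0.63, adjusted p = 0.192) and without brain rat 2 (0.79, adjusted p = 0.0594). miR-99b-5p was called higher in brain by limma on TPM (−0.99, adjusted p = 0.0412 with 1 added). miR-128-3p was lost with predicted miRNAs kept (adjusted p = 0.0601). The difference in detected miRNAs was 56.7, and 105.6 at equal depth.

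Arm calls (13 and 11) fell to 3 and 3 with 0.1 UMI added and to 8 and 6 at a mean of 50 UMIs, by construction through fewer hairpins in the second case (75), and ranged from 9 to 15 and from 5 to 12 without 1 library, lowest without brain rat 1. Interaction calls (12, 15, and 34) were 25 at day 4 by DESeq2, 4 at day 10 by library size, and 3, 5, and 10 with the replicate block. Without 1 library they ranged from 3 to 8, 1 to 13, and 12 to 45. At day 4 the count was 3 without brain rat 2, 7 without brain rat 3, and 5, 6, and 4 without plasma rats 1, 2, and 3. At day 10 it was 1, 6, and 3 without brain rats 1, 2, and 3 and 4 without plasma rat 1. At day 31 it was 17 and 19 without brain rats 1 and 3 and 12 without plasma rat 3. The cause was not tested.

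Groups of 3 limit every test, and no exact test of 3 against 3 reaches a p of 0.05. miRNAs with few UMIs in a tissue are bounded by depth there.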

Other observations

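Further miRNA clusters were described after their values were seen. Mir222 and Mir221 on the X chromosome gave 3 tested miRNAs, all 3 higher in brain, with a median log2 fold change of −3.21. Mir301b and Mir130b on chromosome 11 gave 2 of 2 higher in plasma, with a median of 4.64, and Mir182 and Mir183 on chromosome 4 gave 2 of 2 higher in plasma, with a median of 2.72. Mir99b, Mirlet7e, and Mir125a on chromosome 1 gave 5 tested miRNAs with no call and a median of −0.06. The highest level among the miRNAs left untested was that of miR-363-3p, a member of the miR-106a cluster on the X chromosome, with 1, 4, and 1 UMIs in brain and 119, 17, and 176 in plasma.

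Of the 9 miRNAs that the study names for brain and plasma, 5 were higher in brain and 4 higher in plasma, and 3 of those 4 by library size. miR-542-3p, from the X-linked cluster that also holds miR-351-5p, was at 43.9, 31.9, and 49.8 CPM in brain and at 194, 68.0, and 113 in plasma (log2 fold change 2.39, SE 0.49). miR-24-3p was at 933, 401, and 802 in brain and at 1351, 795, and 1151 in plasma. The groups overlapped in CPM, which is not TMM-scaled (log2 fold change by TMM 1.498, SE 0.39, adjusted p = 0.00341). Among the tested miRNAs, 18 had no UMI in plasma and 5 had none in brain.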
